A study of Mus musculus with 24 samples.

Results

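Neurogenesis and immature neuron genes were examined in the hippocampus of 24 female mice. The set held 9 genes, *Mki67*, *Top2a*, *Eomes*, *Sox4*, *Sox11*, *Dcx*, *Igfbpl1*, *Draxin* and *Calb2*, chosen by name from the 46983 genes of the deposited read count table. Bulk mRNA had been sequenced from punches of the dorsal and ventral hippocampus of adult mice, in 4 groups of 6. The mice were of the study's first cohort, tested for anxiety-like behaviour and memory at 6 months of age, with a Morris water maze. That cohort then underwent MRI under isoflurane, so the values are not those of untested mice. All mice carried loxP-flanked *Fkbp5* alleles, and *Fkbp5* encodes FKBP51, a co-chaperone that restrains the glucocorticoid receptor. The Fkbp5lox/lox mice had no Cre recombinase and served as wild types, whereas in Fkbp5Nex mice Cre from the *Nex* locus deletes *Fkbp5* in glutamatergic forebrain neurons, but not in those of the dentate gyrus. Mice of each genotype were either reared under standard conditions (control) or exposed to early life stress (ELS), in which the dam had limited bedding and nesting material in the first days after birth. The mice compared were thus Fkbp5lox/lox control, Fkbp5lox/lox ELS, Fkbp5Nex control and Fkbp5Nex ELS, all of the C57BL/6 background.

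In the adult hippocampus, new neurons arise in the dentate gyrus, the region that the deletion spares. Radial glia-like stem cells give rise to dividing intermediate progenitors, which pass through a neuroblast stage and become immature and then mature granule neurons. The genes here follow that order. *Mki67* and *Top2a* encode a nuclear protein and a topoisomerase of dividing cells, *Eomes* (Tbr2) marks intermediate progenitors, *Sox4* and *Sox11* encode transcription factors of early neuronal differentiation, *Dcx* encodes the microtubule protein doublecortin of migrating neuroblasts and immature neurons, *Igfbpl1* encodes an insulin-like growth factor binding protein family member, *Draxin* encodes an axon guidance protein, and *Calb2* encodes calretinin. Calretinin marks young granule neurons, but also interneurons and, in mice, mossy cells, and dividing cells of the adult hippocampus include oligodendrocyte precursors and microglia. In bulk tissue, fewer cells of a type and less RNA per cell cannot be told apart.

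The promoters of *Mki67*, *Top2a* and *Sox11* are shown because these genes varied together or apart from each other between mice, as given below. Each line holds the 250 bases before the start site on the gene's strand, from RefSeq (GRCm38.p6), at chr7:135716380-135716629 for *Mki67*, chr11:99024190-99024439 for *Top2a* and chr12:27342719-27342968 for *Sox11*, all on the minus strand. Capitals mark CCAAT and the words TTTGAA and TTCGAA on either strand, letters known from promoters of cell cycle genes, and none of the marked words overlapped another.

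Mki67: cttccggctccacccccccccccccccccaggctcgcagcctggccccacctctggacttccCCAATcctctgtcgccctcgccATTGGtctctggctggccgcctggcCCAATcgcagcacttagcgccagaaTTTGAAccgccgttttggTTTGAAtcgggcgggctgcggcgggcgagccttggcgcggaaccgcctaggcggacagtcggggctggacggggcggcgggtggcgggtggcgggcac

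Top2a: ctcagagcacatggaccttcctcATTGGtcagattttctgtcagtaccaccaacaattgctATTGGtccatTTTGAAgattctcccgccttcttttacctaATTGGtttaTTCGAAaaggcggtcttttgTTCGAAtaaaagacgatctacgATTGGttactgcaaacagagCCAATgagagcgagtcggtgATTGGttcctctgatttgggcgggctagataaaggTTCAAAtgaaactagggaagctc

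Sox11: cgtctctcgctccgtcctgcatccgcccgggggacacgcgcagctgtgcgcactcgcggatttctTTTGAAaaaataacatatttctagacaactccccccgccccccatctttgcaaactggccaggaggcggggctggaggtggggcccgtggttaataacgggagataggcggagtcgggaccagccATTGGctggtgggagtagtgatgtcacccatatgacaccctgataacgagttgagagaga

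*Mki67* held 3 copies of CCAAT and 2 of TTTGAA. *Top2a* held 6 copies of CCAAT, 2 of TTTGAA and 2 of TTCGAA. *Sox11* held 1 CCAAT and 1 TTTGAA. Of 32851 promoter windows of this length, 33.85% held a CCAAT, 10.09% held at least 2, 15.99% held TTTGAA and 1.336% held TTCGAA, while 6.021% held both a CCAAT and one of the other words. Promoter windows were found for 7 of the 9 genes; *Eomes* held 2 copies of CCAAT, *Sox4* held 4, *Draxin* held none, and neither of the other words was in these windows. *Dcx* had 2 start sites, with 1 CCAAT in one window and none in the other. A match of letters describes the sequence and does not show that a factor binds there.

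Total counts ranged from 18347283 to 26555623 reads per mouse. *Fkbp5*, the targeted gene, was between 47.6 and 63.4 CPM (read counts scaled to the library total) in the 12 Fkbp5lox/lox mice and between 8.71 and 26.5 CPM in the 12 Fkbp5Nex mice, so the groups did not overlap. Each mouse is named by the number in its label. Hippocampal dentate markers were present in every library, with *Prox1*, the transcription factor of granule neurons, between 34.1 and 277.7 CPM. Fkbp5Nex control mouse 12 stood apart from its group in *Mki67*, *Sox11*, *Draxin* and *Calb2*, and Fkbp5lox/lox ELS mouse 8 in *Mki67*. Mice 12 and 8 had the highest summed levels of 12 mature granule neuron markers, 989 and 1376 CPM, against 293 to 777 CPM in the other mice. Mouse 12 also had the highest *Fkbp5* level of its genotype and the highest summed level of 6 microglia markers, 382.9 CPM.

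Levels between genes were compared per length, as RPKM, the CPM divided by the gene's merged exon length in kilobases, computed here. *Calb2* was highest with a median of 31.3 RPKM over the 24 mice, and its range did not overlap with that of *Dcx*, the next gene, so that in every mouse it lay above all other genes of the set. *Dcx* and *Sox11* followed with medians of 2.33 and 2.19 RPKM and were not separated, as *Dcx* exceeded *Sox11* in 14 of 24 mice. *Sox4* had a median of 1.06 RPKM and was below *Sox11* in 24 of 24 mice. *Igfbpl1* (0.292 RPKM) and *Mki67* (0.253 RPKM) were not separated either, with *Igfbpl1* above *Mki67* in 15 of 24 mice. *Draxin* (0.127 RPKM) was below *Mki67* in 23 of 24 mice but exceeded *Top2a* (0.108 RPKM) in only 14. *Eomes* was lowest with a median of 0.0346 RPKM.

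The genes also differed in how much they varied between mice of a group. *Dcx* varied least, with a coefficient of variation of 14.4% within groups, followed by *Sox4* with 17.5%, *Sox11* with 29.3% and *Draxin* with 37.5%. *Mki67* and *Calb2* varied by 49.5% and 50.9%, *Top2a* by 75.0%, *Igfbpl1* by 79.1% and *Eomes* by 158.5%. Counting error alone would give 4.00% for *Dcx*, 12.7% for *Mki67*, 2.84% for *Calb2*, 19.0% for *Top2a*, 25.8% for *Draxin*, 9.51% for *Sox4* and 38.3% for *Eomes*. All genes thus varied by more than counting error. As a ratio to it, the spread of *Draxin* was lowest and that of *Calb2* highest.

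**Figure D1:**
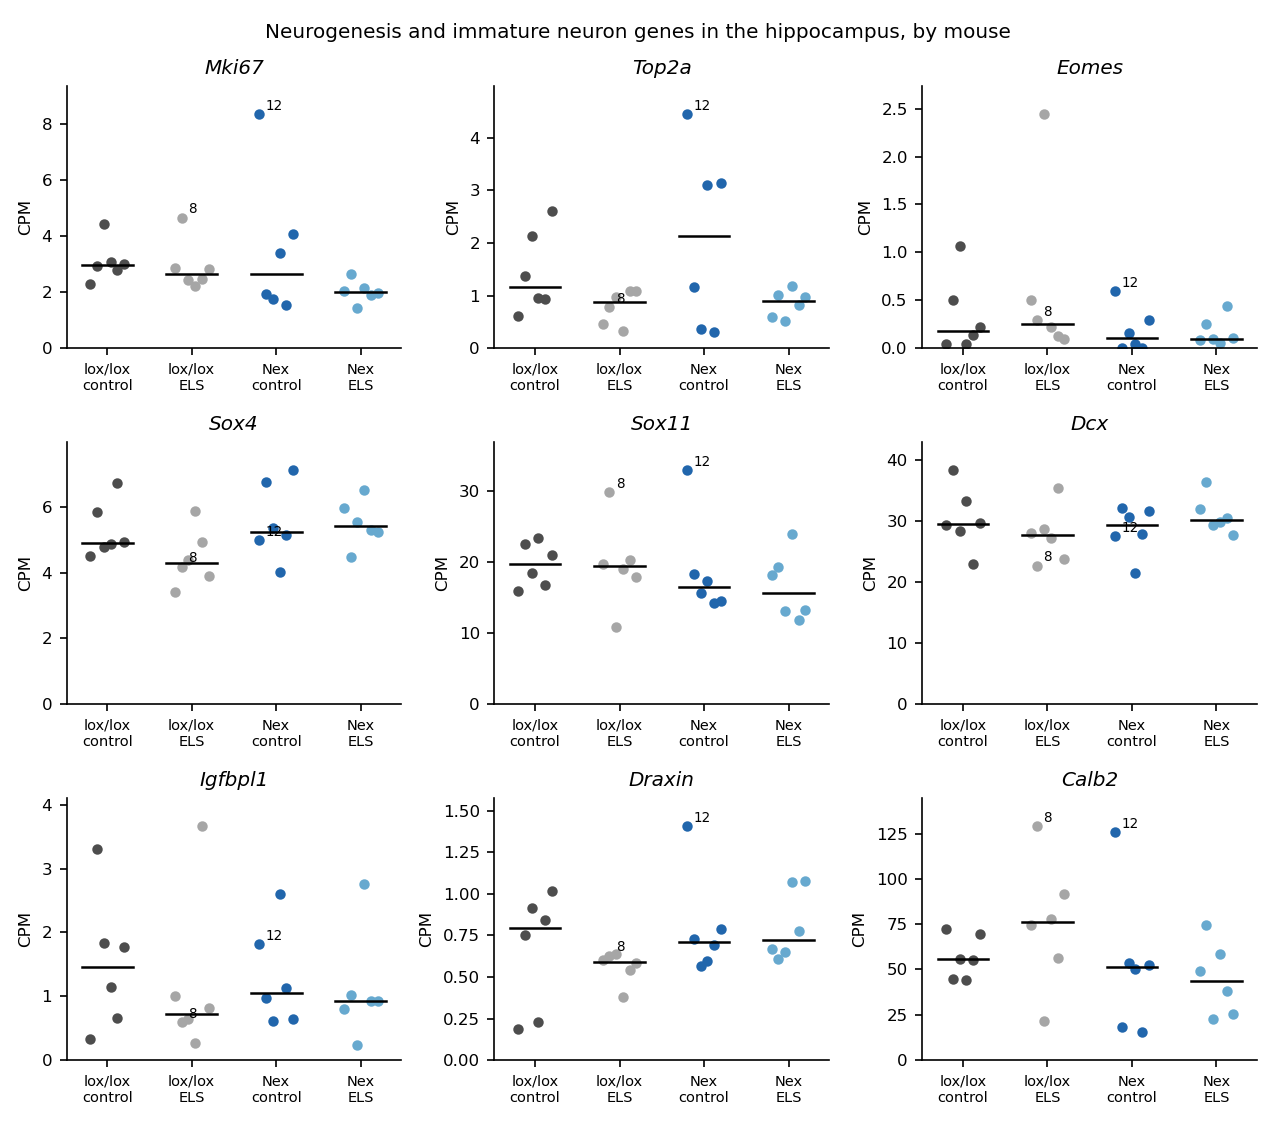
CPM of the 9 genes in each mouse (points) and the median of each group of 6 (lines), with Fkbp5Nex control mouse 12 and Fkbp5lox/lox ELS mouse 8 numbered. Mouse 12 was highest of all mice for *Mki67* (8.36 CPM), *Top2a* (4.45 CPM), *Sox11* (33.0 CPM) and *Draxin* (1.41 CPM), while *Dcx* stayed between 21.5 and 38.4 CPM in all mice.

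The question of each comparison was whether the deletion, the rearing or their combination changed the level of these genes. Of the 9 genes, 8 had at least 10 reads in every mouse of at least 1 group and were fitted together with all genes that did so, 16209 in all. The interaction is given as the ELS effect in Fkbp5lox/lox mice minus that in Fkbp5Nex mice. The fit was edgeR's quasi-likelihood test with 5 surrogate variables, which are estimates of unlabelled variation between libraries. None of the 8 genes passed the false discovery rate of 0.02 in any comparison. For genotype, 19 of all genes tested, or 0.117%, passed, and at an unadjusted p below 0.05 it was 1 of the 8, *Draxin*, beside 11.5% of all genes. *Draxin* met the minimum of 10 reads only in the Fkbp5Nex groups, as given below. For ELS and for the interaction, 0 genes of the whole table, or 0%, passed, and 0 of the 8 reached an unadjusted p below 0.05, beside 3.56% and 4.02% of all genes. DESeq2's Wald test gave the same counts for the 8 genes in these 3 comparisons.

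Of the 8 genes, *Top2a* had the ELS value farthest from 0, and *Mki67* and *Top2a* had the lowest p for ELS. *Top2a* was between 0.605 and 2.60 CPM (median 1.17) in Fkbp5lox/lox control mice, between 0.324 and 1.08 CPM (median 0.878) in Fkbp5lox/lox ELS mice, between 0.296 and 4.45 CPM (median 2.14) in Fkbp5Nex control mice and between 0.513 and 1.17 CPM (median 0.902) in Fkbp5Nex ELS mice. The groups overlapped, but the high values lay on one side: 6 of 12 control mice, 3 of each genotype, were above the highest of the 12 ELS mice, and none of the ELS mice was above the highest control. These 6 mice had from 33 to 98 reads of *Top2a*, and the 12 ELS mice had from 6 to 26. The log2 fold change for ELS was -0.64 (SE 0.37, 95% interval -1.40 to 0.13), with an adjusted p of 0.9995 by edgeR. Without surrogate variables it was -1.08 (SE 0.35, 95% interval -1.81 to -0.36), with an adjusted p of 0.9993 by edgeR over all genes. In that fit *Top2a* was the 1 gene of the 8 with an unadjusted p below 0.05, beside 3.84% of all genes. Both fits thus gave the same direction and neither passed the adjustment. With surrogate variables, leaving out Fkbp5Nex control mouse 64 brought the value to -0.13 and leaving out Fkbp5lox/lox control mouse 34 brought it to -0.37. In every fit with surrogate variables and 1 mouse left out, genes were filtered and surrogate variables estimated anew. Such a shift is thus not that of the mouse alone.

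*Mki67* had the same order of rearing conditions. It was between 2.28 and 4.44 CPM (median 2.96) in Fkbp5lox/lox control mice and between 2.22 and 4.67 CPM (median 2.65) in Fkbp5lox/lox ELS mice. In Fkbp5Nex mice it was between 1.53 and 8.36 CPM (median 2.66) in the control group and between 1.45 and 2.64 CPM (median 2.00) in the ELS group. Mouse 12 alone held the 8.36 CPM, 3 of the 6 Fkbp5Nex control mice were above all Fkbp5Nex ELS mice, and the Fkbp5lox/lox groups overlapped nearly throughout. The log2 fold change for ELS was -0.32 (SE 0.17, 95% interval -0.67 to 0.04), with an adjusted p of 0.9995 by edgeR, and it was -0.13 without mouse 64 and -0.16 without mouse 34. Within Fkbp5Nex mice and without surrogate variables, ELS differed from control by -0.80 (SE 0.31) for *Mki67* and by -1.31 (SE 0.49) for *Top2a*, with an adjusted p of 0.9999 by edgeR for both, and these were the 2 genes of the 8 with an unadjusted p below 0.05, beside 3.06% of all genes. With the surrogate variables these differences were -0.38 and -0.56. Without mouse 64 and with surrogate variables estimated anew they were -0.039 and 0.33, so that the direction turned for *Top2a*. In Fkbp5Nex mice with surrogate variables, 0% of all genes passed the adjustment and 0 of the 8 genes reached an unadjusted p below 0.05, beside 2.8% of all genes. Without mouse 12 and without surrogate variables, the ELS difference over both genotypes was -0.20 for *Mki67* and -0.90 for *Top2a*, with an adjusted p of 0.974 by edgeR for both. The interaction was 0.11 for *Mki67* (95% interval -0.56 to 0.79) and -0.15 for *Top2a* (95% interval -1.57 to 1.26), so a difference of the ELS effect between genotypes was not shown for either.

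The other genes of cell division were read from a list of 33, of which 27 were in the fit. For ELS, 21 of the 27 had a negative and 6 a positive log2 fold change, with a median of -0.05 beside 0.00 over all genes, and 0 passed the adjustment. At an unadjusted p below 0.05, 2 of them were lower, beside 1.58% of all genes. These were *Tk1*, thymidine kinase, with -0.49 (SE 0.18), and *Hmgb2*, a chromatin protein of proliferating cells, with -0.29 (SE 0.11). *Ccnd2*, *Pcna* and *Smc2*, the genes of the list with the most reads, had mean levels of 112.6, 39.7 and 25.7 CPM and ELS values of 0.02 (SE 0.05), -0.05 (SE 0.05) and -0.06 (SE 0.06). Among markers of other cells that can divide, 5 of 6 microglia markers and 6 of 7 oligodendrocyte precursor markers had negative ELS values, with medians of -0.06 and -0.04, as did 4 of 4 astrocyte markers (median -0.07) and 8 of 11 neural stem cell genes (median -0.05). Of 4 endothelial markers, 3 were positive (median 0.08). None passed the adjustment, and of the microglia markers *Aif1* (-0.21, SE 0.08) had an unadjusted p below 0.05. Without surrogate variables, the ELS medians were -0.15 for cell division, -0.17 for microglia and -0.18 for astrocyte genes. They were -0.11 for neural stem cell, -0.03 for oligodendrocyte precursor and 0.02 for endothelial genes, and again 0 passed. The summed microglia markers were between 192.4 and 382.9 CPM in control mice of both genotypes and between 193.6 and 318.3 CPM in ELS mice. Their part in the *Top2a* and *Mki67* values was not tested.

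*Eomes* was too low for the fit, with 0 to 50 reads per mouse and a median of 3. It was at 0 reads in 2 Fkbp5Nex control mice, which allows up to 3 reads per library, and its highest value, 2.44 CPM, was in Fkbp5lox/lox ELS mouse 56, while the next in that group was 0.501 CPM. On log2(CPM + 0.5), Fkbp5Nex differed from Fkbp5lox/lox by -0.37 (exact two-sided permutation test within rearing conditions, p = 0.137), and ELS from control by 0.13 (exact p = 0.597). The spread of *Eomes* within groups, 158.5%, exceeded the 38.3% that counting error alone gives.

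*Dcx*, the most used marker of immature neurons, had the narrowest intervals of the 8 genes. It was between 23.0 and 38.4 CPM (median 29.6) in Fkbp5lox/lox control, between 22.7 and 35.5 CPM (median 27.7) in Fkbp5lox/lox ELS, between 21.5 and 32.2 CPM (median 29.3) in Fkbp5Nex control and between 27.8 and 36.5 CPM (median 30.2) in Fkbp5Nex ELS mice. All 4 groups overlapped. The log2 fold change was 0.02 for genotype (95% interval -0.11 to 0.14) and 0.05 for ELS (95% interval -0.08 to 0.18). The interaction was 0.02 (95% interval -0.23 to 0.27). The intervals for genotype and ELS thus held no change of *Dcx* larger than 0.18 on the log2 scale. Without surrogate variables they reached from -0.13 to 0.20 for genotype and from -0.18 to 0.16 for ELS.

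*Sox11* and *Sox4*, the SoxC transcription factors, did not follow each other between mice (Pearson r = -0.046 over 24 mice, within groups). *Sox11* was between 10.9 and 30.0 CPM (median 19.4) in the 12 Fkbp5lox/lox mice and between 11.9 and 33.0 CPM (median 16.5) in the 12 Fkbp5Nex mice, with overlapping groups. Its genotype log2 fold change was -0.07 (95% interval -0.26 to 0.12) and its ELS value -0.02 (95% interval -0.23 to 0.19). *Sox4* was between 3.41 and 6.72 CPM (median 4.83) in Fkbp5lox/lox and between 4.02 and 7.12 CPM (median 5.33) in Fkbp5Nex mice. Its genotype value was 0.17 (SE 0.11, 95% interval -0.04 to 0.39) and its ELS value -0.17 (SE 0.12, 95% interval -0.41 to 0.07). Among ELS mice, 4 of 6 Fkbp5lox/lox mice were below the lowest Fkbp5Nex mouse for *Sox4*, and the log2 fold change there was 0.23 (SE 0.15, adjusted p = 0.822 by edgeR) with and 0.31 (SE 0.14, adjusted p = 0.9998) without surrogate variables, where *Sox4* was the 1 gene of the 8 with an unadjusted p below 0.05, beside 4.47% of all genes. With surrogate variables, 0.0123% of all genes passed the adjustment and 6.59% had an unadjusted p below 0.05, as did 1 of the 8 genes, *Draxin*, in this comparison within ELS mice.

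*Draxin* had the lowest p for genotype, on few reads. Its fewest reads were 4 in Fkbp5lox/lox control and 7 in Fkbp5lox/lox ELS mice, but 11 in Fkbp5Nex control and 12 in Fkbp5Nex ELS mice. *Draxin* thus entered the fit only through the Fkbp5Nex groups, where it was higher. The filter favoured the direction seen, so the genotype p-values of *Draxin* are not free of that selection. It was between 0.186 and 1.01 CPM (median 0.615) in Fkbp5lox/lox mice and between 0.567 and 1.41 CPM (median 0.710) in Fkbp5Nex mice, from 4 to 31 reads per mouse. Of the Fkbp5lox/lox mice, 4 of 12 were below all Fkbp5Nex mice, and 3 of 12 Fkbp5Nex mice were above all Fkbp5lox/lox mice. Among ELS mice, 5 of 6 Fkbp5Nex mice were above the highest Fkbp5lox/lox mouse, and among control mice 1 of 6 was. The log2 fold change for genotype was 0.54 (SE 0.20, 95% interval 0.12 to 0.97), with an adjusted p of 0.303 by edgeR. In ELS mice it was 0.83 (SE 0.30, 95% interval 0.20 to 1.46), with an adjusted p of 0.698 by edgeR. The interaction was -0.57 (95% interval -1.44 to 0.30, adjusted p = 0.9995), so a difference of the genotype effect between rearing conditions was not shown. Without surrogate variables these were 0.39 (95% interval -0.07 to 0.85) and 0.51 (95% interval -0.15 to 1.16), and with them the genotype value was 0.33 when mouse 12 was left out. *Draxin* overlaps *Mad2l2* on the opposite strand, a protein coding gene with 95 to 212 reads per mouse, and whether the counting used strand is not given in the sources used here, so reads of both genes may not be separated.

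*Igfbpl1* and *Calb2* had wide intervals. *Igfbpl1* was between 0.233 and 3.67 CPM over all mice, and the highest mouse of each group was between 2.60 and 3.67 CPM. Its log2 fold change was -0.38 for genotype (95% interval -1.14 to 0.37) and 0.39 for ELS (95% interval -0.44 to 1.21), and the ELS value was -0.30 without surrogate variables. *Calb2* was between 44.3 and 72.2 CPM (median 55.7) in Fkbp5lox/lox control, between 21.8 and 129.2 CPM (median 76.1) in Fkbp5lox/lox ELS, between 15.3 and 125.7 CPM (median 51.2) in Fkbp5Nex control and between 22.5 and 74.3 CPM (median 43.6) in Fkbp5Nex ELS mice. Mice 8 and 12 held the highest values of all, and 4 of 6 Fkbp5lox/lox ELS mice were above all Fkbp5Nex ELS mice. The genotype log2 fold change of *Calb2* was -0.37 (SE 0.22, 95% interval -0.82 to 0.09). Without mouse 12 and without surrogate variables it was -0.67 (edgeR, adjusted p = 0.303), and in that fit *Mki67* was at -0.41 and *Sox11* at -0.27, with adjusted p of 0.344 and 0.426.

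**Figure D2:**
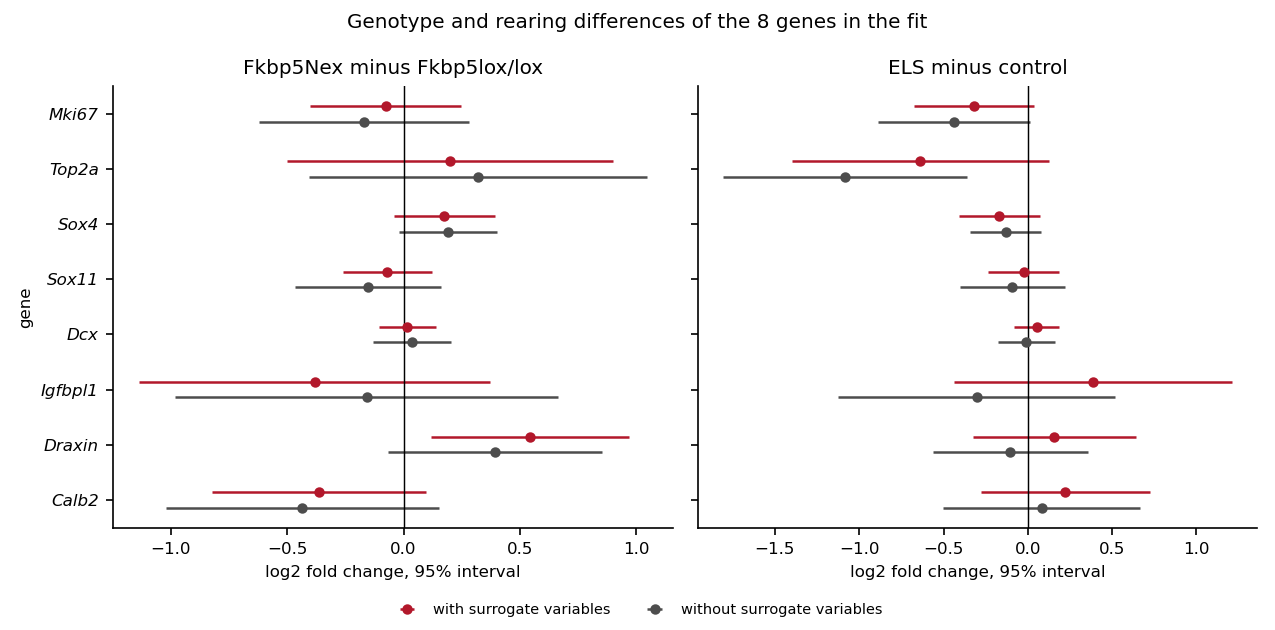
Log2 fold changes of the 8 genes in the fit for genotype (Fkbp5Nex minus Fkbp5lox/lox) and for ELS (ELS minus control), with and without surrogate variables; points are estimates and bars 95% intervals. The intervals of *Dcx* lie closest to 0, those of *Top2a* and *Igfbpl1* are widest, and the ELS value of *Top2a* without surrogate variables (-1.08) has an interval that does not reach 0.

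In the 3 remaining comparisons, none of the 8 genes passed the adjustment or an unadjusted p of 0.05 in the fit of all mice with surrogate variables. These were ELS in Fkbp5lox/lox mice (0% of all genes called, 4.86% at an unadjusted p below 0.05), ELS in Fkbp5Nex mice, given above, and genotype in control mice (0.0494% and 8.69%). DESeq2's Wald test called 0 of the 8 in these as well. Without surrogate variables, *Mki67* and *Top2a* had an unadjusted p below 0.05 for ELS in Fkbp5Nex mice, as given above. So did *Top2a* for ELS in Fkbp5lox/lox mice when only the 12 mice compared were fitted. *Mki67* did for genotype in control mice with a score of the granule markers as a covariate. None of these passed the adjustment.

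Lists of genes that precede or follow these stages were read in the same fit. For genotype, 0 of 11 neural stem cell genes, 0 of 27 cell division genes and 0 of 20 other immature neuron genes passed the adjustment, with medians of 0.01, 0.04 and -0.01 beside 0.00 over all genes. Without surrogate variables the medians were 0.02, 0.03 and 0.09, so that of the immature neuron list changed sign, and again 0 passed. With them, 1 stem cell gene, *Vim* (vimentin, 0.24), had an unadjusted p below 0.05, beside 11.5% of all genes. So did 4 cell division genes, the chromatin gene *Hmgb2* (0.33) and the replication genes *Mcm2* (0.20), *Mcm6* (-0.25) and *Pcna* (-0.11), and 4 immature neuron genes, *Nnat* (0.17), *Rnd2* (0.16), *Nrep* (-0.14) and *Marcksl1* (-0.19). Of 12 mature granule neuron genes, all had negative genotype values with a median of -0.46, and 4 passed the adjustment, beside 0.117% of all genes: *Prox1* (-0.49, SE 0.06), *Npnt* (-0.69, SE 0.08), *Glis3* (-0.48, SE 0.08) and *Dsp* (-1.07, SE 0.14). The summed granule markers were between 404.6 and 1376 CPM in Fkbp5lox/lox and between 293.1 and 989.2 CPM in Fkbp5Nex mice. Without surrogate variables all 12 were again negative, with a median of -0.55, but 0 passed the adjustment, and the 4 genes were at -0.73 (SE 0.27), -0.94 (SE 0.27), -0.59 (SE 0.28) and -1.41 (SE 0.27), with a smallest adjusted p of 0.076 by edgeR for *Dsp*. Markers of neighbouring tissue also differed between genotypes in the fit with surrogate variables. All 3 choroid plexus genes were negative (median -1.65) and *Ttr*, transthyretin, passed the adjustment (-3.07, SE 0.46), all 9 thalamus genes were positive (median 0.41) and all 4 mossy cell genes negative (median -0.26), with 0 passed in both. Without surrogate variables these medians were -0.63, 0.14 and -0.27, and *Ttr* was at -0.83 and did not pass. Between rearing conditions, all 9 thalamus genes (median 0.21) and all 3 choroid plexus genes (median 1.01) had positive ELS values, with 0 passed. Without surrogate variables these ELS medians were 0.63 and -0.82, so that of the choroid plexus genes changed sign. The part of dissection in the genotype and ELS values of the 8 genes was not tested. With the granule marker score as a covariate in place of the surrogate variables, the genotype values of *Mki67*, *Sox11* and *Calb2* changed sign, to 0.24, 0.17 and 0.03, that of *Dcx* became -0.07, and none passed the adjustment.

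How the genes varied together was examined on deviations from the group means over the 24 mice, with permutations within groups. Among 28 pairs, the highest correlation was that of *Mki67* and *Top2a* (Pearson r = 0.77, permutation p = 0.00157, adjusted p = 0.0189; Spearman rho = 0.677, p = 0.00534, adjusted p = 0.043), and it was 0.652 without the 2 mice farthest in *Mki67*. *Mki67* also varied with *Calb2* (r = 0.694, permutation p = 0.00286; rho = 0.591, p = 0.00749) and *Sox11* (r = 0.618, permutation p = 0.00311; rho = 0.553, p = 0.00767), and without those 2 mice r fell to 0.484 and 0.407. *Sox11* and *Calb2* had r = 0.686 (permutation p = 0.00219; rho = 0.501, p = 0.0242), and r = 0.461 without the 2 farthest mice. *Top2a* varied with *Draxin* (r = 0.543, permutation p = 0.00337; rho = 0.563, p = 0.00549) and *Igfbpl1* (r = 0.519, permutation p = 0.00499; rho = 0.609, p = 0.0038), and these were 0.594 and 0.583 without the 2 farthest mice. *Mki67* and *Draxin* had r = 0.449 (permutation p = 0.00967, adjusted p = 0.0387), with a Spearman rho of 0.389 (adjusted p = 0.179) and r = 0.332 without the 2 farthest mice. By Pearson's correlation these 7 pairs passed an adjusted p of 0.05, while by Spearman's *Sox11* with *Calb2* (adjusted p = 0.113) and *Mki67* with *Draxin* did not. *Dcx* and *Sox4* had no such pair: the 7 correlations of *Dcx* lay between -0.183 and 0.235 and those of *Sox4* between -0.201 and 0.235. No batch was given in the labels, so no relation was computed within batches, and all points share depth and dissection as common sources of variation.

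The same deviations were set against marker lists of cell types, 80 relations in all, of which 9 passed an adjusted p of 0.05 by Pearson's and 1 by Spearman's correlation. *Mki67* varied with the cell division list (r = 0.853, permutation p = 0.00011, adjusted p = 0.0088; rho = 0.81, p = 0.00038, adjusted p = 0.0304; r = 0.751 without the 2 farthest mice). *Top2a* varied with that list (r = 0.738, permutation p = 0.00454; rho = 0.678, p = 0.00574), with the neural stem cell list (r = 0.747, permutation p = 0.00045; rho = 0.702, p = 0.00127) and with the microglia list (r = 0.705, permutation p = 0.00365; rho = 0.617, p = 0.00685). Without the 2 farthest mice these were 0.612, 0.629 and 0.540. *Sox11* varied with the mature granule neuron list (r = 0.729, permutation p = 0.00136, adjusted p = 0.0338; rho = 0.612, p = 0.00318, adjusted p = 0.0609), and r was 0.512 without mice 12 and 8. For *Mki67* and the granule list r was 0.630 (permutation p = 0.00538; rho = 0.597, p = 0.00769) and dropped to 0.298 without mice 12 and 8, so that relation rested on these mice. The choroid plexus list, a tissue beside the hippocampus, went the opposite way to *Sox11* (r = -0.609, permutation p = 0.00261; rho = -0.596, p = 0.00373; r = -0.618 without the 2 farthest mice). *Sox11* and *Calb2* also varied with the cell division list (r = 0.635, permutation p = 0.00171; rho = 0.588, p = 0.00396, and r = 0.691, permutation p = 0.00211; rho = 0.494, p = 0.0363), with r = 0.502 and 0.714 without the 2 farthest mice. *Dcx* had its farthest values from 0 with the thalamus list (r = -0.492, adjusted p = 0.105 by permutation; rho = -0.543) and the granule list (r = -0.403), neither past the adjustment.

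**Figure D3:**
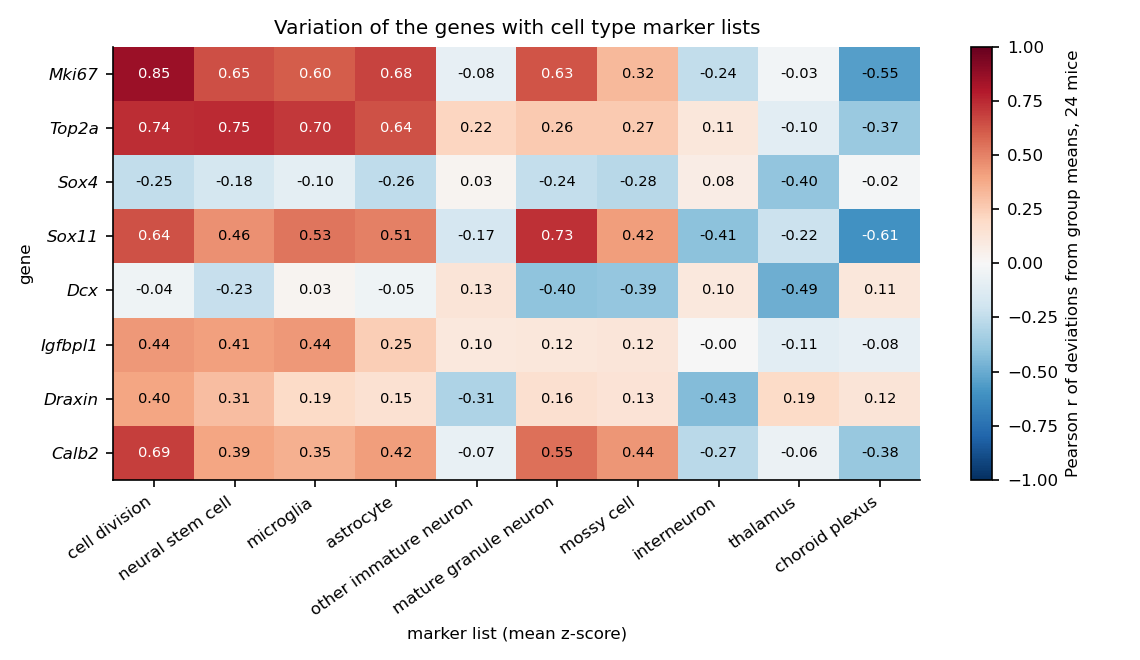
Pearson correlations, over 24 mice, between deviations from group means of 8 genes (rows) and of the mean z-scores of 10 marker lists (columns). *Mki67* is highest with the cell division list (0.853), *Top2a* with the neural stem cell list (0.747) and *Sox11* with the mature granule neuron list (0.729), while *Dcx* lies between -0.492 and 0.131 and *Sox4* between -0.397 and 0.077.

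Of all genes in the fit, those nearest to *Top2a* in their deviations were *Cd53* (r = 0.912), *C3ar1* (0.865), *C1qb* (0.864), *Cd81* (0.862) and *Gfap* (0.859) over the 24 mice. The first 3 of these are known from microglia, and *Gfap* encodes the intermediate filament of astrocytes and of radial glia-like stem cells. The 3 mice with the most *Top2a*, Fkbp5Nex control mice 12, 64 and 52 (4.45, 3.15 and 3.11 CPM), were also the 3 with the most *Gfap* (1871, 893 and 1707 CPM), against 688 CPM or less in all other mice. The summed astrocyte list, without *Gfap*, was 1752 CPM in mouse 12 but 1119 and 1154 CPM in mice 64 and 52. It was 1378 CPM in Fkbp5lox/lox control mouse 44. The neural stem cell list was at 414.9, 295.6 and 401.8 CPM in mice 12, 64 and 52, and at 322.4 CPM in Fkbp5lox/lox control mouse 74. *Top2a* with the astrocyte list had r = 0.639 (adjusted p = 0.105 by permutation) and rho = 0.395. Nearest to *Mki67* were *Scg2* (r = 0.861), *Prcp* (0.854), *E2f2* (0.827), *Leprot* (0.818) and *Zfp952* (0.808), of which *E2f2* encodes a transcription factor of the cell cycle. For *Sox11* they were *5330413P13Rik* (0.884), *Sv2c* (0.874), *Fam102b* (0.870), *Gm5087* (0.868) and *Ccnl2* (0.861). *Dcx* was nearest to *Adamts6* and *Caln1* (both 0.816), *Grip1* and *Tcte2* (both 0.771) and *Slc16a14* (0.745). *Sox4* was nearest to *Apc2* (0.765), *Igfbpl1* to *Wisp1* (0.784), *Draxin* to *Ctsk* (0.740) and *Calb2* to *Ptpro* (0.844). None of the other genes of the set was counted among the candidates. The 5 surrogate variables went with 71.2% of the within-group variance of *Sox11*, 64.6% of that of *Dcx*, 62.8% of that of *Mki67*, 40.7% of that of *Top2a* and 22.9% of that of *Sox4*, and with 93.2% of that of the granule score.

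**Figure D4:**
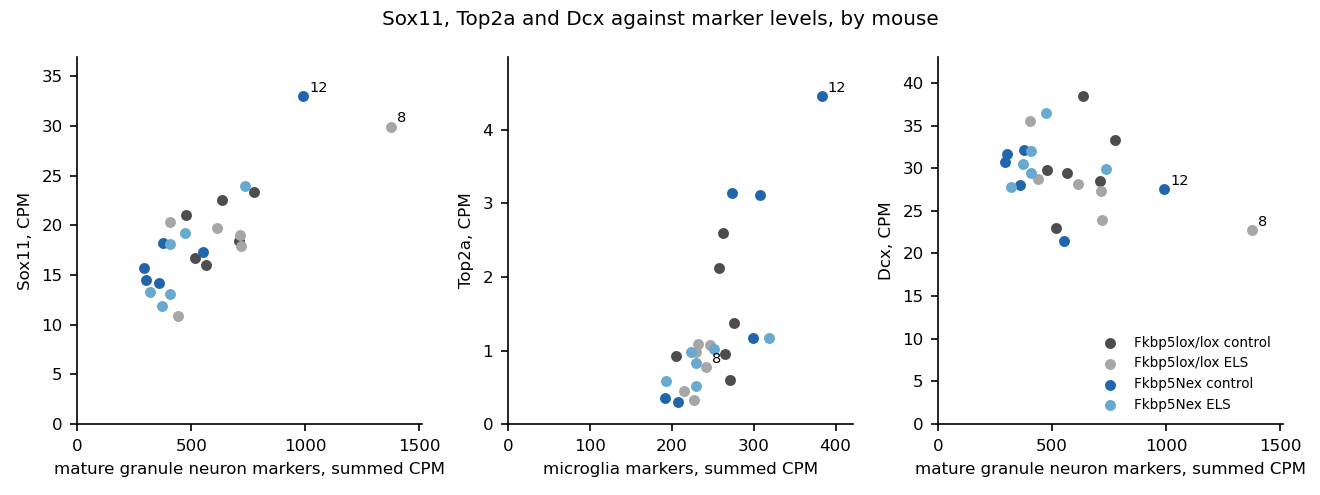
*Sox11* and *Dcx* against the summed CPM of 12 mature granule neuron markers, and *Top2a* against the summed CPM of 6 microglia markers, with 1 point per mouse coloured by group and mice 12 and 8 numbered. *Sox11* is highest in the mice with the most granule markers (33.0 and 30.0 CPM), *Dcx* is not (27.6 and 22.7 CPM), and *Top2a* is highest in mouse 12, which has the most microglia markers.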

How the data were processed

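For the 24 mice, the deposited values are unnormalized counts of reads. Read pairs had been aligned with HISAT2 2.0.5 and counted with featureCounts 1.5.0-p3, while build, annotation and strand setting are not given in the sources used here. Groups came from the sample labels, and the gene set and lists were chosen with earlier results of these data known. Genes with 10 counts in every mouse of at least 1 group were fitted with edgeR 4.0.16 (R 4.3.3) after TMM scaling, with 4 group means and 5 surrogate variables from sva 3.50.0, and p-values were adjusted by Benjamini-Hochberg over 16209 genes at a false discovery rate of 0.02. A gene at the minimum of 10 counts carries large counting error. DESeq2 1.42.0 was an alternative. No label gives litters or extraction batches. In the study, dams with their litters were assigned to ELS or control, so any littermates among these mice are not independent for rearing. The p-values treat each mouse as independent. In fits with surrogate variables they measure the spread between mice that remains after those variables. Gene lengths came from GENCODE (GRCm38) by Ensembl identifier. Named genes were the 9 genes, *Fkbp5*, list genes past the threshold or otherwise the 3 with the highest mean CPM, and for each gene fitted the 5 with the most similar deviations; *Tk1*, *Hmgb2*, *Mcm2*, *Mcm6*, *Aif1*, *Vim*, *Nnat*, *Rnd2*, *Nrep* and *Marcksl1* were chosen after their values were seen. In simulated data, 93 of 100 genes changed by a log2 of 1 for ELS were recovered, as were 90 of 100 for genotype, and 71 of 100 in each comparison at a log2 of 0.5. That data set, of 16014 genes, needed 0 surrogate variables, whereas the counts of the mice were fitted with 5. Unlabelled variation of that kind was thus not found in the simulated data. These rates therefore do not show how often a change in genes of the set would be found in the mice. Permutations numbered 100000 for each relation; their p-values were added after the data were seen.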

Additional observations from a re-analysis of the deposited data

Results flagged for a closer look

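In 10 of the 36 groups of 6 values examined (9 genes in 4 groups), 1 mouse lay far from the other 5 by Dixon's test. Chance gives about 1 in 20 for independent, normally distributed values. The 36 groups share mice and the test used CPM without logarithm, so an excess over that rate cannot be read from the 10. Fkbp5Nex control mouse 12 was high for *Mki67* (8.36 CPM, next 4.08), *Sox11* (33.0, next 18.3), *Draxin* (1.41, next 0.786) and *Calb2* (125.7, next 53.6). *Mki67* was also high in Fkbp5lox/lox control mouse 34 (4.44 CPM) and in Fkbp5lox/lox ELS mouse 8 (4.67 CPM). *Igfbpl1* was high in Fkbp5lox/lox ELS mouse 72 (3.67 CPM) and Fkbp5Nex ELS mouse 60 (2.75 CPM), *Eomes* in Fkbp5lox/lox ELS mouse 56 (2.44 CPM), and *Draxin* was low in Fkbp5lox/lox ELS mouse 68 (0.378 CPM, 7 reads).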

How the results depend on the processing

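None of the 8 genes passed the threshold under any of 36 settings, and the smallest adjusted p was 0.2437 (*Draxin*, genotype, edgeR without Fkbp5lox/lox ELS mouse 56). Directions were kept in 76 of 80 values for genotype, 66 of 80 for ELS and 59 of 80 for the interaction over 10 alternatives, and in 181, 184 and 157 of 192 when 1 mouse was left out. The false discovery rate of 0.05 counts among the 10 alternatives but used the same fit. Its 8 values in each of these comparisons thus kept their direction by construction. The causes of the changes were not tested. Each mouse number belongs to 1 mouse and the groups share none. The Fkbp5lox/lox mice were littermates of the Fkbp5Nex mice in the study, but no label gives the litters. No paired or within-litter analysis was thus possible. The fits without mouse 12 or 8 were chosen after seeing the data. Depth limits *Eomes*, *Draxin*, *Igfbpl1* and *Top2a* most.

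Over all genes, the 19 calls for genotype and 8 for genotype in control mice became 3 and 2 without surrogate variables, 36 and 24 without the count filter, 70 and 53 with DESeq2's Wald test, 50 and 29 at a false discovery rate of 0.05, 2 and 3 with the granule score and 3 and 2 with the thalamus score as covariate. They became 4 and 2 without surrogate variables and mouse 12, and 3 and 2 without surrogate variables and mouse 8, and the 8 became 2 when only the 12 mice compared were fitted. DESeq2 gave 4 calls in place of 2 for genotype in ELS mice and 1 in place of 0 for ELS in Fkbp5lox/lox mice. Leaving out 1 mouse gave 4 to 32 calls for genotype, 2 to 14 for genotype in control mice, and 0 to 1 for ELS and for ELS in Fkbp5Nex mice. Of the relations with marker lists, 9 passed by Pearson's and 1 by Spearman's correlation.

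Log2 fold changes that changed sign follow by setting. Without surrogate variables, ELS was -0.0081 for *Dcx*, -0.30 for *Igfbpl1* and -0.10 for *Draxin*, and the interaction was 0.46 for *Top2a*, -0.25 for *Dcx*, 0.18 for *Sox11* and 0.64 for *Calb2*. With the granule score, genotype was 0.24 for *Mki67*, -0.069 for *Dcx*, 0.17 for *Sox11* and 0.030 for *Calb2*, ELS was -0.0011 for *Dcx*, -0.30 for *Igfbpl1* and -0.12 for *Draxin*, and the interaction was 0.39 for *Top2a*, -0.26 for *Dcx*, 0.12 for *Sox11* and 0.42 for *Calb2*. With the thalamus score, ELS was -0.12 for *Igfbpl1* and -0.17 for *Draxin*, and the interaction was 0.55 for *Top2a*, -0.10 for *Dcx*, 0.31 for *Sox11*, 0.35 for *Igfbpl1* and 0.67 for *Calb2*. Without surrogate variables and mouse 12, ELS was -0.013 for *Dcx*, 0.027 for *Sox11* and -0.24 for *Igfbpl1*, and the interaction was 0.095 for *Top2a*, -0.24 for *Dcx* and 0.17 for *Calb2*. Without surrogate variables and mouse 8, ELS was -0.23 for *Igfbpl1*, -0.12 for *Draxin* and -0.031 for *Calb2*, and the interaction was 0.47 for *Top2a*, -0.20 for *Dcx*, 0.020 for *Sox11*, 0.043 for *Igfbpl1* and 0.41 for *Calb2*.

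When 1 mouse was left out, with genes filtered and surrogate variables estimated anew, values that changed sign ranged as follows. For genotype they were -0.084 to 0.060 for *Dcx*, -0.74 to 0.22 for *Igfbpl1*, -0.25 to 0.017 for *Mki67* and -0.13 to 0.41 for *Top2a*. For ELS they were -0.0097 to 0.069 for *Dcx*, -0.013 to 0.29 for *Draxin*, -0.27 to 0.52 for *Igfbpl1* and -0.13 to 0.048 for *Sox11*, and -0.90 to 0.33 for *Top2a* within Fkbp5Nex mice. For the interaction they were -0.44 to 0.32 for *Calb2*, -0.16 to 0.068 for *Dcx*, -1.37 to 0.23 for *Igfbpl1*, -0.19 to 0.35 for *Mki67*, -0.20 to 0.081 for *Sox11*, -0.20 to 0.066 for *Sox4* and -0.91 to 0.26 for *Top2a*.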
